A study of Mus musculus with 214 samples.

Results

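The maturation of untreated liver was followed in 30 libraries of WT mice, out of 117 WT libraries in the table used here and 214 libraries in the series. The members were all WT saline libraries of the sequencing runs 200710Eng and 200724Eng that were collected at Day2, Day5, Week10 or Month10. WT here means C57BL/6 mice with the genotype RaDR R/R;gpt g/g, which carry a recombination reporter and a mutation reporter and have intact Mgmt. Every mouse was sham-treated with intraperitoneal saline on postnatal days 8 and 15, so all 4 groups share the reporters and both injections. Day2 (8 mice, 4 of them male) and Day5 (7 mice, 3 male) were 2 and 5 days after the second injection, at 17 and 20 days of age, and are called pups below. Week10 (8 mice, 4 male) and Month10 (7 mice, 3 male) were 10 weeks and 10 months after the second injection and are called adults. Each library came from a separate mouse, and the sources used here do not say which mice shared a litter. Run 200710Eng held the males and run 200724Eng the females, so run and sex cannot be told apart.

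The mouse liver is still changing when pups are weaned. It has stopped being a blood-forming organ, hepatocytes leave the cell cycle, fetal genes such as Afp are shut down, and enzymes of drug, bile acid and lipid metabolism reach adult levels as the diet shifts from milk to chow. After puberty, the sex-specific rhythm of growth hormone secretion drives large differences between male and female hepatocytes, above all in major urinary proteins, sulfotransferases and cytochrome P450 enzymes.

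RNA was counted by 3′ digital gene expression, which reads the polyadenylated end of transcripts from primers that carry molecular identifiers. Whether reads were collapsed by identifier is not stated in the sources used here. Values are normalized counts, that is, reads on a gene divided by one size factor per library. Libraries held 392164 to 2329956 reads on genes, with medians of 1636762 at Day2, 1506105 at Day5, 1323157 at Week10 and 944551 at Month10. One Day2 female (392164 reads) and 2 Month10 males (462404 and 495868 reads) were the shallowest. A gene was tested where its mean was at least 5, which left 8877 of 18647 genes. It was called where limma with Benjamini-Hochberg adjustment gave an adjusted p under 0.05 and the log2 fold change exceeded 0.58 in either direction. Fold changes are on the log2(normalized count + 1) scale, which understates the change of genes with few reads, and carry the standard error of the fit. Adjusted p-values measure the spread between mice of one time.

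The 10 hepatocyte markers summed to normalized counts of 188790.0 to 331514 at Day2, 143171 to 324027 at Day5, 153059 to 248470.0 at Week10 and 112241 to 185141 at Month10. Albumin (Alb, the main plasma protein) ran from 61606 to 144947 (median 121239) at Day2, from 48514 to 149974 (median 92899) at Day5, from 46714 to 101192 (median 65348) at Week10 and from 69469.6 to 128040.0 (median 91043) at Month10. Kidney markers were at or near 0, with Umod, Slc34a1 and Slc12a1 at 0 in all 30 libraries and a summed level of the 5 markers of at most 12.8 in any library. Of 13 exocrine pancreas markers 6 were measured, and most of their sum came from Cela1, an elastase, at a mean of 46.6 at Day2 and 130 at Week10.

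From pups to adults, 2011 genes rose and 1399 fell of 8877 tested, 38.4% of all (22.7% higher and 15.8% lower). The 2 adult times did not contribute equally. Against both pup times together, Week10 had 510 genes higher (5.75%) and 857 lower (9.65%), 15.4% in all, whereas Month10 had 3362 higher (37.9%) and 2169 lower (24.4%), 62.3% in all. These comparisons share the 15 pups, so their values are given side by side. Over all genes tested the median log2 fold change was 0.08 from pups to adults, -0.08 at Week10 and 0.25 at Month10. A gene that passed the filter through the group where it is high had to differ, so counts over the tested members of a group are a description beside these shares and medians. After all libraries were set to 1 common total, 339 genes rose and 1374 fell at Week10 (median -0.25) and 4038 rose and 1696 fell at Month10 (median 0.48). With libraries centred within bins of transcript length, an alternative added after the data were seen, 615 rose and 707 fell at Week10 and 2496 rose and 2559 fell at Month10. From pups to adults 1589 rose and 1577 fell with this centring (median -0.01), and 2134 rose and 1333 fell with 1 common total (median 0.11).

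The Month10 libraries stood far apart from all others in a principal component analysis of the 4869 genes with a mean of at least 20. On the first component (42.1% of the variance) they lay between 35.1 and 79.0, whereas Day2 lay between -44.5 and -18.3, Day5 between -38.0 and -4.17 and Week10 between -5.45 and 3.31. The second component (18.5%) set males above females at each of the 4 times without overlap, and run cannot be told apart from sex here. Week10 males lay between 50.5 and 53.1 and Week10 females between -2.74 and 4.78, and Month10 males lay between 12.5 and 19.1 and Month10 females between -38.4 and -27.4. Males and females of the pups were closer together, with Day2 males between -4.20 and 2.28, Day2 females between -20.9 and -13.0, Day5 males between -0.51 and 15.5 and Day5 females between -22.8 and -13.7.

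**Figure D1:**
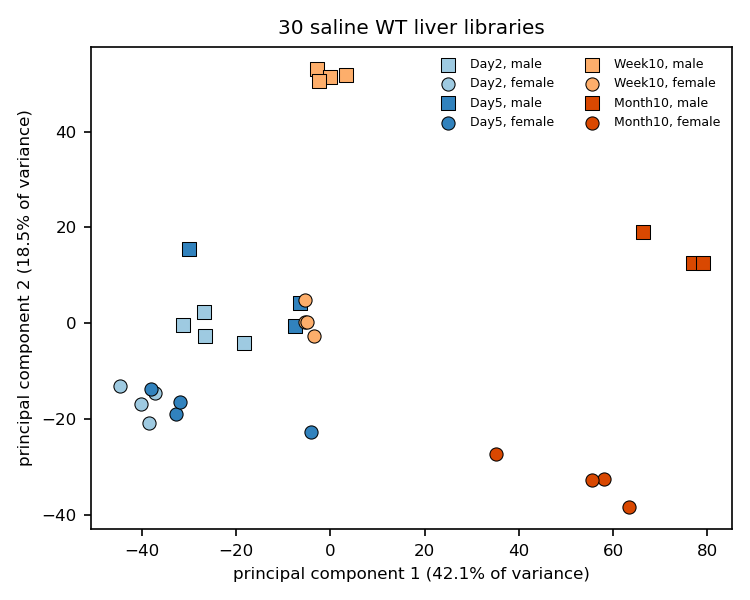
Scores of the 30 saline WT libraries on the first (42.1% of the variance, x axis) and second (18.5%, y axis) principal components of log2(normalized count + 1), with colours for collection time, squares for males and circles for females. The 7 Month10 libraries lie at 35.1 or more on the first component and every other library lies at 3.31 or less.

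The difference between Month10 and Week10 moved with transcript length. Genes were put into 4 equal bins by the median annotated length of their transcripts, which 98.9% of tested genes had. From the shortest to the longest bin (medians of 661, 921, 1679 and 3052 bases), the median log2 fold change of Month10 over Week10 was -0.12, -0.01, 0.34 and 1.02. In the longest bin 1338 genes were higher and 130 lower at Month10. The same bins gave medians of -0.03, -0.05, -0.09 and -0.14 for Week10 over pups, and 0.03, 0.02, -0.01 and 0.06 for Day5 over Day2. Depth was also lower at Month10, and with log2 total reads as a term 3598 genes were higher and 1896 lower, against 3467 and 1900 without it. The order with length has no cause tested here. Groups with at least 6 tested genes are therefore given with their Week10 and Month10 changes against pups. The Week10 changes set Week10 against pups, but they come from the same fit of all 30 libraries and share its run term, its filter on low values and its spread with Month10. With libraries set to 1 total, by edgeR on all libraries or with libraries centred within bins of transcript length, some medians near 0 turned sign. At Week10 these were the medians of bile acid genes, hepatocyte markers, liver transcription factors, periportal genes, cytochrome P450 genes, gluconeogenesis genes, adult glucose enzymes, iron and metal genes, ribosomal protein genes and oxidative phosphorylation genes. At Month10 they were those of bile acid genes, cytochrome P450 genes, adult glucose enzymes, complement and lectin genes, endothelial markers, conjugation genes, fatty acid oxidation genes, iron and metal genes, and growth hormone and IGF genes.

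**Figure D2:**
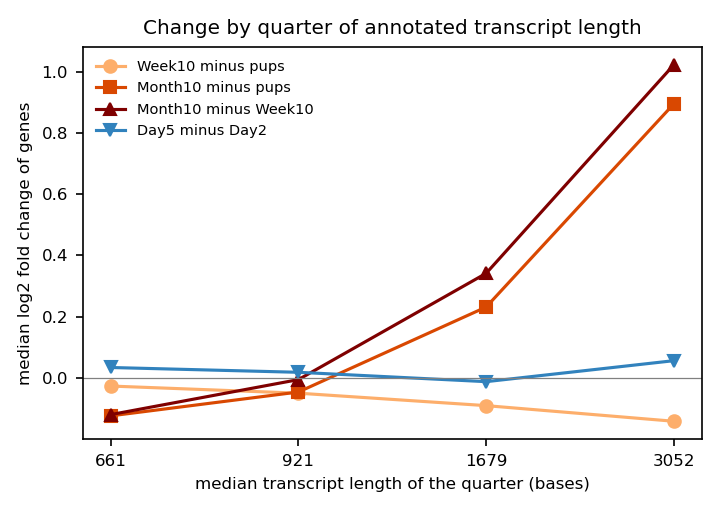
Median log2 fold change of genes (y axis) in each of 4 bins of annotated transcript length (x axis, evenly spaced bins labelled with their median length in bases) for 4 comparisons. Month10 over Week10 climbs from -0.12 to 1.02, whereas Week10 over pups moves from -0.03 to -0.14.

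Fetal liver genes fell. There were 16 oncofetal genes, which fetal liver and liver tumors express and adult liver does not. Of these 15 were measured and 7 passed the filter on low values. From pups to adults 6 of the 7 fell, against 15.8% of all genes tested. Members high only in pups passed the filter through the pups and had to fall, so this count is a description. The median log2 fold change of the 7 was -3.01, with -3.29 at Week10 and -2.73 at Month10. The same 6 fell in both, against 9.65% and 24.4% of all genes. Sall4, a stem cell factor, was at 0 in all 30 libraries.

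Afp (alpha-fetoprotein, the fetal counterpart of albumin, ENSMUSG00000054932.6, chr5:90490737-90508907, + strand of GRCm38) had normalized counts from 54.2 to 209 (median 165) at Day2, from 21.5 to 67.1 (median 39.1) at Day5, from 1.10 to 10.7 (median 4.84) at Week10 and from 0 to 6.33 (median 1.87) at Month10. All adults lay below all pups, and Day5 lay mostly below Day2. The change was -4.26 ± 0.28 (adjusted p = 3.0e-15) from pups to adults, and it was -3.89 at Week10 and -4.63 at Month10. Gpc3 (glypican 3, a cell surface proteoglycan that restrains growth, chrX:52272426-52613950, - strand) ran from 37.9 to 85.6 (median 59.9) at Day2, from 23.4 to 53.0 (median 39.996) at Day5, from 0 to 4.22 (median 1.46) at Week10 and from 0 to 12.7 (median 1.09) at Month10. Pups and adults did not overlap, and the change of -4.30 ± 0.31 (adjusted p = 2.4e-14) was nearly the same at Week10 (-4.36) and Month10 (-4.25). Spink1, a trypsin inhibitor, fell by 4.46 on the log2 scale, with 1 Day2 library at 460 against a Day2 median of 33.8. Igf2bp3, an RNA-binding protein of fetal tissue, and Cd24a, a surface glycoprotein of progenitor cells, changed by -3.01 and -1.98. Scd2, a stearoyl-CoA desaturase, was the tested member that was not called (-0.45 ± 0.24, adjusted p = 0.11).

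Imprinted growth genes, whose expression from 1 parental allele controls growth before and after birth, also fell. Of 19 genes 18 were measured and 9 tested, and 7 fell and none rose (median -2.17). At Week10 8 fell (median -2.03), and at Month10 6 fell and 1 rose (median -2.51). Of all genes tested 15.8% fell from pups to adults, 9.65% at Week10 and 24.4% at Month10. Members high only in pups passed the filter through the pups and had to fall. H19, a noncoding RNA (chr7:142575529-142578143, - strand), had the largest fall of the list. Its counts ran from 123 to 779.9 (median 204) at Day2, from 37.1 to 268 (median 99.5) at Day5, from 0 to 4.57 (median 2.41) at Week10 and from 0 to 10.8 (median 3.74) at Month10, and every adult lay below every pup. The change was -5.66 ± 0.36 (adjusted p = 3.9e-13). Igf2, the fetal insulin-like growth factor beside H19 on chromosome 7, was already low in pups at 0 to 60.2 at Day2 and 0 to 11.7 at Day5, and its change of -2.17 ± 0.45 (adjusted p = 1.1e-04) rested on few reads. Mest and Grb10, both growth regulators expressed from 1 parental allele, changed by -2.63 and -2.58. Igf2r, the receptor that clears IGF2, went opposite ways at the adult times, with -0.96 at Week10 (adjusted p = 0.0088) and 2.05 at Month10 (adjusted p = 5.9e-08), a difference of 3.02 ± 0.32 (adjusted p = 4.1e-10). Dlk1 was at 0 in all 30 libraries.

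**Figure D3:**
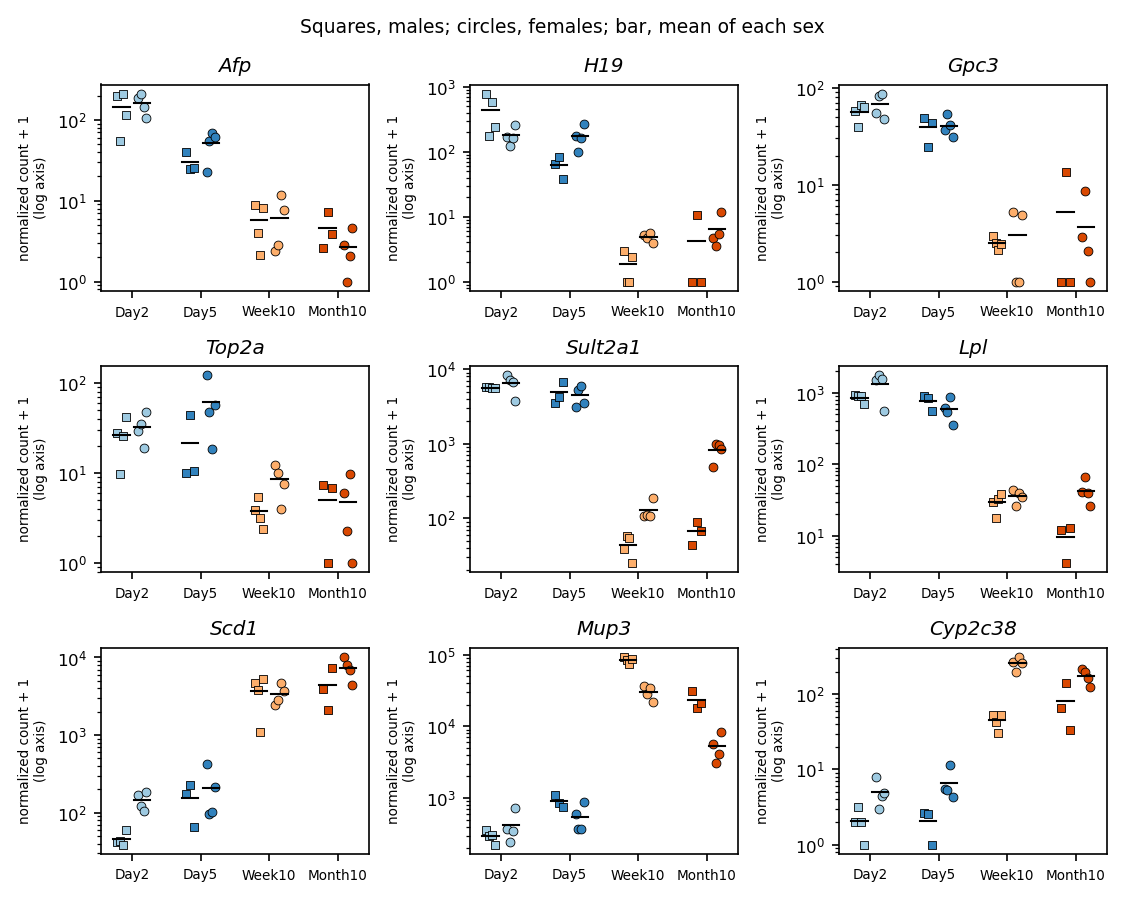
Normalized count + 1 (log axis) of 9 genes in each library at the 4 collection times, with squares for males, circles for females and bars for the mean of each sex. Afp, H19, Gpc3, Sult2a1 and Lpl lie lower in all 15 adults than in all 15 pups, Scd1, Mup3 and Cyp2c38 lie higher, and Top2a overlaps.

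Genes of cell division fell, with 1 exception among those tested. Of 46 genes 44 were measured, 31 were tested and 30 of these fell from pups to adults, none rose, and the median log2 fold change was -2.24. At Week10 28 of 31 fell (median -2.05), and at Month10 30 fell and 1 rose (median -2.42). Of all genes tested 15.8% fell from pups to adults, 9.65% at Week10 and 24.4% at Month10. Members high only in pups passed the filter through the pups and had to fall. The summed level of the 44 genes ran 603 to 1317 at Day2, 575 to 1387 at Day5, 243 to 429 at Week10 and 161 to 605 at Month10, so that all pups lay above all Week10 libraries. Ccnd1, a cyclin and the most abundant member at Month10, had a mean of 188 there, beside a mean of 357 for the sum. Promoters of the cell division genes are shown because they share letters that the expression values did not choose. In windows of 300 bases that begin upstream of the start of transcription and end shortly after it (RefSeq, GRCm38.p6), CCAAT or its reverse complement ATTGG, the letters bound by the factor NF-Y, stood in 30 of 37 windows of 35 matched genes (81.1%), against 37.4% of all 32851 windows. TTTGAA or TTCAAA, the letters of the CHR element of cell cycle genes, stood in 18 of 37 (48.6%) against 17.9% of all. The windows of Top2a (chr11:99024140-99024439, - strand), Cdk1 (chr10:69352863-69353162, - strand) and Mki67 (chr7:135716330-135716629, - strand) are printed 5′ to 3′ with these letters in capitals, and a match describes the sequence only.
Top2a: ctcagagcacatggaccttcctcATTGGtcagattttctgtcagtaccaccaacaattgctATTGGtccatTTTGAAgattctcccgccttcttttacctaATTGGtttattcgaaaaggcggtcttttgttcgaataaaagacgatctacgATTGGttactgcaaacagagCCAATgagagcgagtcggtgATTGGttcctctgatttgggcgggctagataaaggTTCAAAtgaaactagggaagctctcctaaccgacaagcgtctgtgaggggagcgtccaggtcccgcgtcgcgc
Cdk1: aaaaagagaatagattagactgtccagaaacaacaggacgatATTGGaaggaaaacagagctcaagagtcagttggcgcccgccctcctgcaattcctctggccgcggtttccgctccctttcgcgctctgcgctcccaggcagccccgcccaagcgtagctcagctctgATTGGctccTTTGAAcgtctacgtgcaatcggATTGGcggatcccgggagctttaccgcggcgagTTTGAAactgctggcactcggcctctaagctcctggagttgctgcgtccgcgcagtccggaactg
Mki67: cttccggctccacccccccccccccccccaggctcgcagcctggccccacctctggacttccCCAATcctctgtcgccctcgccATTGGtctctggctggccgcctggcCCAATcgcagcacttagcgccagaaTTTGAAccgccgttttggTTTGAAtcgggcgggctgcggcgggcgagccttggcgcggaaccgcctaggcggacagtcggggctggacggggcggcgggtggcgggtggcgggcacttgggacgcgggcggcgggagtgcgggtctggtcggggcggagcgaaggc
The Top2a window held CCAAT 6 times and TTTGAA 2 times on either strand, and the Cdk1 and Mki67 windows held CCAAT 3 times and TTTGAA 2 times each. Birc5, which fell as well, held neither.

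Top2a (topoisomerase II alpha, which untangles chromosomes, chr11:98992943-99024189, - strand) ran from 8.67 to 46.4 (median 28.0) at Day2, from 8.95 to 122 (median 43.7) at Day5, from 1.42 to 11.3 (median 3.77) at Week10 and from 0 to 8.72 (median 4.99) at Month10. Pups and adults overlapped at their edges, and the change was -2.75 ± 0.35 (adjusted p = 5.0e-08). Cdk1, the kinase that starts mitosis, ran from 26.01 to 65.7 (median 32.2) at Day2, from 10.6 to 78.8 (median 40.6) at Day5, from 1.498 to 13.3 (median 8.79) at Week10 and from 0 to 6.30 (median 2.49) at Month10 and changed by -2.79 ± 0.24 (adjusted p = 2.6e-12). Birc5 (survivin, a passenger protein of dividing chromosomes) ran from 17.3 to 135 (median 52.4) at Day2, from 24.4 to 135 (median 42.1) at Day5, from 0 to 14.1 (median 4.66) at Week10 and from 0 to 4.99 (median 2.52) at Month10, with no overlap and a change of -3.94 ± 0.31 (adjusted p = 9.5e-13). The proliferation marker Mki67 had few reads in pups already, with medians of 6.24, 8.95, 1.45 and 1.26 at the 4 times, and changed by -1.92 ± 0.31 (adjusted p = 2.5e-06). Mcm6, a subunit of the replication helicase, and Tyms and Tk1, which make thymidine nucleotides, changed by -3.25, -1.11 and -1.62. Ccnd1, the G1 cyclin that hepatocytes also express at rest, was the exception. It was not called from pups to adults (0.42 ± 0.28, adjusted p = 0.2) or at Week10 (-0.54, adjusted p = 0.29) and rose at Month10 (1.39, adjusted p = 9.1e-04). From pups to adults it changed by -0.67 (adjusted p = 0.047) in the males of run 200710Eng alone and by 1.41 (adjusted p = 3.9e-05) in the females of run 200724Eng alone. Cdkn1a (p21, the p53-induced brake on the cell cycle) spread widely within each time, from 4.02 to 212 at Day2 and from 0 to 7.22 at Month10, and changed by -1.79 ± 0.55 (adjusted p = 0.0084).

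Genes of red cell precursors mostly fell. Of 30 red cell precursor genes 28 were measured and 14 tested, and 9 fell and 3 rose (median -1.96), with 1 higher and 9 lower at Week10 (-1.25) and 4 higher and 9 lower at Month10 (-2.62). Of all genes tested 22.7% rose and 15.8% fell, with 5.75% and 9.65% at Week10 and 37.9% and 24.4% at Month10. The fallen red cell genes included 5 globin genes, Car2 (carbonic anhydrase 2) and Tfrc (the transferrin receptor). Hbb-bs ran from 4961 to 17884 (median 8557) at Day2, from 3708 to 30206 (median 10953) at Day5, from 2613 to 9055 (median 3544) at Week10 and from 1008 to 3077 (median 1228) at Month10, and changed by -2.11 ± 0.24 (adjusted p = 3.5e-08). Hbb-b1 is a near-identical copy of Hbb-bs, and Hba-a1 and Hba-a2 carried the same values in every library, so reads of these copies cannot be told apart. Car2 ran from 111 to 362 (median 199.9) at Day2, from 122 to 394 (median 186) at Day5, from 8.51 to 59.1 (median 41.5) at Week10 and from 6.33 to 37.1 (median 17.5) at Month10, with all adults below all pups (-3.18 ± 0.16, adjusted p = 6.9e-20). Alas2, which makes heme in red cells, was not called (-0.18 ± 0.30, adjusted p = 0.63), but its change was 0.95 (adjusted p = 0.0098) in the males of run 200710Eng alone and -1.18 (adjusted p = 0.0011) in the females of run 200724Eng alone. Cpox, Blvrb and Car1, which make heme, reduce biliverdin and hydrate carbon dioxide and are not limited to red cells, were the 3 that rose. The red cell list summed to medians of 22227, 33773, 10834 and 4480.4 at the 4 times. The Klf1 and Gata1 genes of erythroblasts did not pass the filter.

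Of 15 neutrophil and myeloid precursor genes 6 were tested, and all 6 fell (median -2.30), against 15.8% of all genes tested. At Week10 4 of 6 fell (-1.94) and at Month10 all 6 (-2.65), against 9.65% and 24.4% of all genes. Members high only in pups, such as Ngp, passed the filter through the pups and had to fall, so these counts are a description. Ngp, a granule protein of neutrophil precursors, ran from 21.7 to 137 (median 54.5) at Day2, from 7.02 to 36.1 (median 15.2) at Day5, from 0 to 3.04 (median 0.552) at Week10 and from 0 to 2.92 (median 0) at Month10, with no overlap (-4.26 ± 0.30, adjusted p = 9.8e-15). Camp (cathelicidin) and S100a8 (calprotectin) changed by -3.36 and -2.39. Early granule enzymes of the bone marrow, Mpo, Elane, Prtn3 and Ctsg, did not pass the filter. The 15 genes summed to medians of 451, 219, 65.6 and 44.1, and at Week10 their sum ran from 28.4 to 460. The same shares and the same limit of the filter hold for T and NK cell markers. Of 25 T and NK cell markers 6 were tested and all 6 fell (median -1.46). At Week10 none was higher and 3 lower (-0.93), and at Month10 none was higher and 6 lower (-1.93). Ccl5, a chemokine of cytotoxic cells and the most abundant of them, had medians of 47.8, 35.9, 16.9 and 9.59 and changed by -1.71 ± 0.33 (adjusted p = 9.6e-05). Of 18 B and plasma cell markers 4 were tested, with 2 higher and 2 lower, against 22.7% higher and 15.8% lower of all genes. Jchain, the joining chain of secreted antibodies, rose (2.04 ± 0.37, adjusted p = 1.5e-05) and Cd79b, part of the B cell receptor, fell (-1.75 ± 0.39, adjusted p = 2.6e-04). In bulk liver, fewer cells of a type and less RNA per cell cannot be told apart.

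Among the resident cells, markers of stellate cells and fibroblasts, which lay down the matrix, fell at both adult times. Of 30 genes 26 were tested and 16 fell and none rose (median -1.04), against 15.8% lower of all genes tested. At Week10 17 fell (-1.20) and at Month10 14 (-0.74), against 9.65% and 24.4% of all genes. Sparc, a matrix protein of growing tissue, ran from 262 to 399 (median 296) at Day2, from 203 to 462 (median 324) at Day5, from 35.2 to 71.5 (median 63.1) at Week10 and from 46.8 to 100.3 (median 68.6) at Month10, and no adult reached the lowest pup (-2.31 ± 0.12, adjusted p = 1.1e-18). Col3a1 and Col1a1, fibrillar collagens, changed by -2.35 ± 0.20 (adjusted p = 1.1e-11) and -1.99 ± 0.28 (adjusted p = 2.4e-07), and Eln (elastin) and Postn (periostin) by -3.05 and -2.66. Dcn (decorin), the most abundant member, changed by -0.74, -0.74 at Week10 and -0.74 at Month10. The list summed to medians of 1716, 1798, 835 and 1289 at the 4 times.

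Kupffer cell and macrophage markers were lower at Month10 than at Week10, where 10 of 17 fell and none rose, against 21.4% lower and 39.1% higher of all genes tested. With libraries centred within bins of transcript length 13 fell and 1 rose. Of 17 tested, 11 fell and 2 rose from pups to adults (median -0.99), but at Week10 2 fell and 1 rose (-0.25) and at Month10 12 fell and 2 rose (-1.60). The male change with age was below the female change in 6 of the 17 and above it in 1 (median difference -1.07). Over all genes tested these shares were 1.6% and 0.98%, and run and sex cannot be told apart. Clec4f, the C-type lectin of Kupffer cells, ran from 182 to 356 (median 290.2) at Day2, from 103 to 249 (median 169) at Day5, from 111 to 225 (median 181) at Week10 and from 26.3 to 184 (median 81.9) at Month10, and changed by -0.29 at Week10 (adjusted p = 0.44) and -1.69 at Month10 (adjusted p = 6.8e-07). Marco, a scavenger receptor, fell at both times (-2.49 at Week10, adjusted p = 1.2e-04 and -2.16 at Month10, adjusted p = 2.0e-04). C6, a complement component that hepatocytes also make, rose (2.07 ± 0.37, adjusted p = 4.7e-05). Of 23 endothelial genes tested 7 fell and none rose (median -0.40). Against pups 5 fell at Week10 (-0.49), and 9 fell and 4 rose at Month10 (-0.13). Beside these and the Kupffer cell counts, 22.7% of all genes rose and 15.8% fell from pups to adults. At Week10 the shares were 5.75% and 9.65%, and at Month10 37.9% and 24.4%. Lyve1, a hyaluronan receptor of sinusoidal endothelium, fell (-1.30 at Week10, adjusted p = 2.5e-04 and -2.24 at Month10, adjusted p = 4.5e-09), whereas Clec4g, also of sinusoidal endothelium, changed by 0.06 at Week10 (adjusted p = 0.93) and -2.39 at Month10 (adjusted p = 4.9e-07). The Kupffer cell list summed to medians of 1885, 1379.5, 1509 and 919.9 at the 4 times and the endothelial list to 1036, 879, 773 and 845, and no member of either was at 0 in all 30 libraries. Of 16 cholangiocyte markers 4 were tested, with 3 lower and 1 higher. Spp1 (osteopontin) changed by -0.71 ± 0.17 (adjusted p = 9.8e-04), and Sox9, a bile duct transcription factor, by 0.84 ± 0.30 (adjusted p = 0.018). The cholangiocyte list summed to medians of 877, 662, 811 and 348, most of it from Tm4sf4, a membrane protein. Both tested megakaryocyte genes, Pf4 and Ppbp, fell (-1.25 and -0.77), and of 7 mesothelial markers 1 was tested, Gpm6a (-1.25 ± 0.38, adjusted p = 0.0062).

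**Figure D4:**
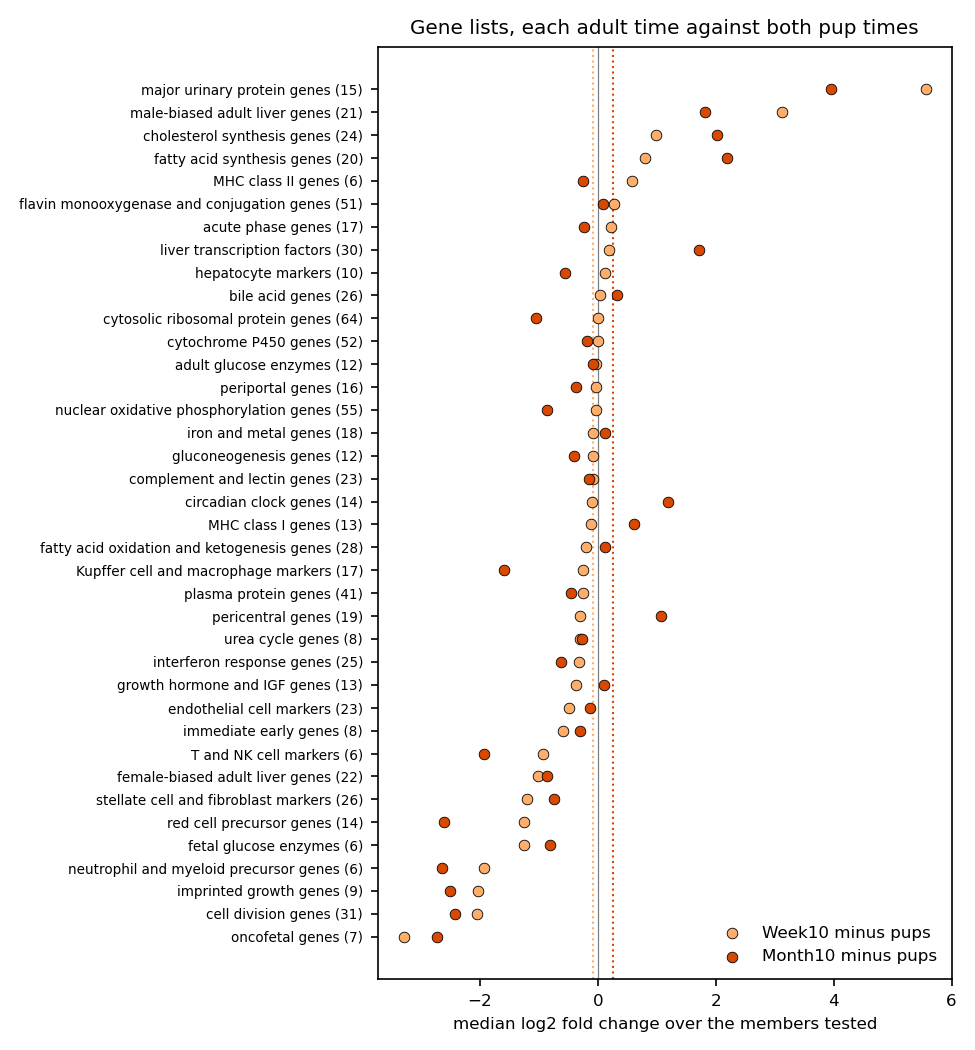
Median log2 fold change over the tested members (x axis) of each gene list with at least 6 tested members (y axis, number tested in brackets), for Week10 (light) and Month10 (dark) against both pup times, with dotted lines at the medians of all genes tested (-0.08 and 0.25). Major urinary protein genes lie highest (5.56 and 3.95) and oncofetal genes lowest (-3.29 and -2.73), and ribosomal protein genes and liver transcription factors differ between the adult times.

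Major urinary protein genes rose with the highest median of any list with at least 6 tested members. These liver-made lipocalins carry pheromones into urine, and these 21 genes lie in 1 cluster on chromosome 4, so that reads may be shared between copies and single members are uncertain. Of 21 genes 15 were tested and all 15 rose (median 4.75), as they did at Week10 (5.56) and at Month10 (3.95), against 22.7%, 5.75% and 37.9% of all genes. Their summed level ran 309 to 993 at Day2, 437 to 1350.4 at Day5, 29353 to 164833 at Week10 and 4108 to 57748 at Month10. Mup3 (chr4:62083476-62087342, - strand), the most abundant, ran from 224 to 734 (median 325) at Day2, from 366 to 1111 (median 748) at Day5, from 22117 to 92877 (median 55549.5) at Week10 and from 3051 to 31255 (median 8248) at Month10, so every adult lay above every pup (5.54 ± 0.24, adjusted p = 8.5e-17). Week10 lay above Month10 in each sex, with Week10 males from 74452 to 92877 and Month10 males from 18186 to 31255, and Week10 females from 22117 to 36648 and Month10 females from 3051 to 8248. Mup17 and Mup13 changed by 6.02 ± 0.43 (adjusted p = 1.8e-11) and 5.49 ± 0.43 (adjusted p = 9.7e-11). Mup20 (darcin, chr4:62050234-62054158, - strand) ran from 2.01 to 69.5 (median 37.3) at Day2, from 6.49 to 116 (median 59.3) at Day5, from 289 to 28917 (median 11671) at Week10 and from 23.9 to 9457 (median 428) at Month10, and changed by 5.34 ± 0.57 (adjusted p = 2.4e-08).

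Genes of fatty acid synthesis rose. Of 20 tested genes 18 rose and none fell (median 1.55), against 22.7% higher of all genes tested. At Week10 11 rose and 1 fell (0.79), and at Month10 19 rose (2.19), against 5.75% and 37.9% of all genes higher. Scd1 (stearoyl-CoA desaturase 1, which makes oleate, chr19:44394455-44407879, - strand) ran from 37.8 to 185 (median 80.2) at Day2, from 64.7 to 428 (median 173) at Day5, from 1099.6 to 5346 (median 3721) at Week10 and from 2133 to 10183 (median 6878) at Month10. No pup reached the lowest adult, and the change was 5.24 ± 0.27 (adjusted p = 1.3e-14). Fasn (fatty acid synthase) ran from 3.01 to 13.6 (median 7.46) at Day2, from 10.8 to 48.0 (median 21.2) at Day5, from 19.9 to 45.7 (median 31.4) at Week10 and from 139 to 408 (median 289) at Month10; Week10 overlapped Day5, and Month10 stood above every other library (1.14 at Week10, adjusted p = 0.0031 and 4.06 at Month10, adjusted p = 9.0e-14). Elovl6, which elongates palmitate, changed by 3.84 ± 0.33 (adjusted p = 1.1e-10) with no overlap. Srebf1, a transcription factor that drives these genes, was the one that fell at Week10 (-0.68) and it rose at Month10 (2.30). Pklr, the liver pyruvate kinase of glycolysis, changed by 0.77 ± 0.16 (adjusted p = 9.5e-05).

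Genes of cholesterol synthesis rose as well. Of 24 tested genes 21 rose and none fell (median 1.45), with 12 higher at Week10 (0.98) and 21 higher at Month10 (2.03). Of all genes tested 22.7% rose and 15.8% fell, with 5.75% and 9.65% at Week10 and 37.9% and 24.4% at Month10. Cyp51 (lanosterol demethylase) ran from 1.99 to 18.01 (median 9.91) at Day2, from 6.71 to 199.8 (median 95.1) at Day5, from 74.6 to 154 (median 105) at Week10 and from 163 to 352 (median 304) at Month10. Day2 lay below both adult times, and Day5 reached into the adult range (2.81 ± 0.37, adjusted p = 6.5e-07). Sqle (squalene epoxidase) and Fdps (farnesyl diphosphate synthase) changed by 3.07 ± 0.52 (adjusted p = 2.5e-05) and 2.12 ± 0.33 (adjusted p = 9.1e-06). Of 28 tested genes of fatty acid oxidation and ketogenesis 7 rose and 3 fell (median -0.10), with 5 higher and 3 lower at Week10 (-0.20) and 9 higher and 6 lower at Month10 (0.12). Cpt1a, which admits fatty acids to mitochondria, changed by -0.73 at Week10 (adjusted p = 3.1e-04) and 0.49 at Month10 (adjusted p = 0.0059).

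Genes with other metabolic roles were among the largest falls whose pup and adult values did not overlap, which held for 93 of all genes (1.05%; 40 higher and 53 lower in adults). Lpl (lipoprotein lipase, which clears triglyceride from lipoproteins, chr8:68880491-68907448, + strand) ran from 545 to 1742 (median 912) at Day2, from 352 to 893 (median 609) at Day5, from 16.5 to 42.2 (median 32.7) at Week10 and from 3.16 to 64.3 (median 25.3) at Month10. Every adult lay below every pup (-4.97 ± 0.26, adjusted p = 6.3e-15). Sult2a1 (a hydroxysteroid sulfotransferase, chr7:13796246-13837409, - strand) ran from 3782 to 8259 (median 5706) at Day2, from 3135 to 6831 (median 4284) at Day5, from 24.1 to 189 (median 81.0) at Week10 and from 43.1 to 1003 (median 490.1) at Month10. Its change was -5.20 ± 0.32 (adjusted p = 7.9e-13), and among adults the females lay above the males at both times. Sult2a5, a neighbouring copy with which reads may be shared, changed by -5.70 ± 0.35 (adjusted p = 5.2e-13). Hao2 (a peroxisomal hydroxy acid oxidase) and Pde6c (a phosphodiesterase known from cone photoreceptors) changed by -4.72 ± 0.46 (adjusted p = 5.0e-09) and -5.03 ± 0.28 (adjusted p = 6.2e-18), and Akr1c18, which inactivates progesterone, by -5.13 ± 0.30 (adjusted p = 1.1e-16).

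Among the gains without overlap were transport and defence genes. Slc10a2 (the apical bile acid transporter of ileum and bile duct, chr8:5083219-5105351, - strand) ran from 0 to 4.01 (median 0) at Day2, from 0 to 2.44 (median 1.08) at Day5, from 34.6 to 51.7 (median 40.9) at Week10 and from 43.8 to 103 (median 70.3) at Month10 and changed by 4.95 ± 0.27 (adjusted p = 1.8e-18). Pigr (the receptor that carries IgA into bile, chr1:130826684-130852249, + strand) ran from 9.03 to 49.0 (median 30.6) at Day2, from 15.9 to 97.2 (median 44.0) at Day5, from 214 to 632 (median 376) at Week10 and from 1205 to 2139.6 (median 1596) at Month10. The groups stood in steps from pups to Week10 to Month10, with 3.38 at Week10 (adjusted p = 1.5e-13) and 5.40 at Month10 (adjusted p = 2.2e-18). Orm1 (orosomucoid 1, an acute phase protein) changed by 3.82 ± 0.30 (adjusted p = 8.0e-11), Cyp2c38 (a P450 enzyme of the closely related Cyp2c cluster) by 5.06 ± 0.22 (adjusted p = 1.3e-21), and Hectd2os, an RNA antisense to Hectd2, by 4.82 ± 0.18 (adjusted p = 3.1e-23). Reads of an antisense RNA and its partner cannot be told apart where counting ignores strand, and the sources used here do not state the setting.

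Among genes of drug and bile acid metabolism, calls went both ways, against 22.7% higher and 15.8% lower of all genes tested. Of 52 tested cytochrome P450 genes 15 rose and 12 fell (median -0.06, a sign that turned with edgeR), with 15 higher and 11 lower at Week10 (-0.00) and 16 higher and 15 lower at Month10 (-0.19). Of 51 genes of flavin monooxygenases and conjugation 16 rose and 13 fell (median 0.38), with 20 higher and 11 lower at Week10 (0.27) and 15 higher and 15 lower at Month10 (0.08). The male change with age was below the female change in 16 P450 genes and above it in 5 (median difference -0.48). For the conjugation list it was below in 15 and above in 4 (-0.33). Over all genes tested these shares were 1.6% and 0.98%, and run and sex cannot be told apart. Of 26 bile acid genes 7 rose and 5 fell (median 0.11, which also turned with edgeR), with 4 higher and 6 lower at Week10 (0.04) and 10 higher and 6 lower at Month10 (0.33). Cyp7b1, the oxysterol hydroxylase of the alternative bile acid pathway, ran from 0 to 14.1 (median 4.12) at Day2, from 4.71 to 13.8 (median 7.57) at Day5, from 18.2 to 634 (median 159) at Week10 and from 41.4 to 487 (median 70.5) at Month10 and rose without overlap (4.22 ± 0.35, adjusted p = 1.1e-10). Slco1a1, a sinusoidal uptake transporter, changed by 5.34 ± 0.53 (adjusted p = 4.8e-09), with Month10 females from 3.78 to 17.5 and Month10 males from 373 to 608. Cyp7a1, the rate-limiting enzyme of bile acid synthesis, was not called (-0.30 ± 0.25, adjusted p = 0.32), nor was Cyp8b1, which sets the share of cholic acid (0.11 ± 0.31, adjusted p = 0.78). Slc10a1 (NTCP, the main bile acid uptake carrier) fell (-0.90 ± 0.16, adjusted p = 1.4e-05).

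Most tested pericentral genes were higher at Month10 than at Week10, where 13 of 19 rose and 1 fell, against 39.1% higher and 21.4% lower of all genes tested. With libraries centred within bins of transcript length 14 rose and 1 fell. Of 19 tested pericentral genes 7 rose and 4 fell, but 3 rose and 7 fell at Week10 (median -0.30) and 11 rose and 4 fell at Month10 (1.08). For this list and those that follow, 22.7% of all genes rose and 15.8% fell from pups to adults. At Week10 the shares were 5.75% and 9.65%, and at Month10 37.9% and 24.4%. The summed level of all 22 listed pericentral genes did not rise between the adult times. It ran from 12608 to 20041 (median 15904) at Week10 and from 13388 to 16726 (median 14421) at Month10. Glul (glutamine synthetase, found around the central vein) was not called (0.42 ± 0.23, adjusted p = 0.13), nor was Cyp2e1, which activates nitrosamines and ethanol (-0.47 ± 0.22, adjusted p = 0.075), nor Cyp1a2 (-0.16 ± 0.27, adjusted p = 0.65). Cyp2e1 ran from 1267 to 10073 (median 7750.0) at Day2, from 1068 to 11307 (median 4788) at Day5, from 2314 to 8229 (median 4881) at Week10 and from 2289.6 to 4979 (median 2964) at Month10, so that pups and adults overlapped throughout. Of 16 periportal genes 3 rose and 5 fell (median -0.14), with 3 higher and 4 lower at Week10 (-0.03) and 4 higher and 4 lower at Month10 (-0.38). Cyp2f2, a periportal P450, changed by 1.54 at Week10 (adjusted p = 2.7e-05) and -0.42 at Month10 (adjusted p = 0.16). Of 8 urea cycle genes 1 rose and 1 fell (median -0.33), with none higher and 1 lower at Week10 (-0.31) and 1 higher and none lower at Month10 (-0.26). Cps1, the first enzyme of the cycle, fell (-0.70 ± 0.18, adjusted p = 0.0013), Slc25a15, the ornithine carrier, rose (0.80 ± 0.12, adjusted p = 1.3e-06), and Ass1 was not called (-0.30 ± 0.16, adjusted p = 0.11). Of 12 gluconeogenesis genes 1 rose and 6 fell (median -0.26), with none higher and 2 lower at Week10 (-0.08) and 3 higher and 6 lower at Month10 (-0.41). Fbp1, a gluconeogenic phosphatase, changed by 0.06 at Week10 (adjusted p = 0.85) and -1.78 at Month10 (adjusted p = 3.3e-12), and Pck1, the rate-limiting carboxykinase, by -0.01 at Week10 (adjusted p = 0.99) and 0.90 at Month10 (adjusted p = 0.0016). Of 12 adult glucose enzymes 3 rose and 1 fell (median -0.11), with 2 higher and 1 lower at Week10 (-0.02) and 4 higher and 2 lower at Month10 (-0.09). Of 6 fetal glucose enzymes 3 fell (median -1.05), with none higher and 4 lower at Week10 (-1.26) and none higher and 3 lower at Month10 (-0.82). Pkm, the pyruvate kinase of fetal and dividing cells, was among those that fell (-1.71 ± 0.22, adjusted p = 4.4e-08).

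Plasma proteins are the main secreted products of hepatocytes. For these and the lists that follow, 22.7% of all genes rose and 15.8% fell from pups to adults. At Week10 the shares were 5.75% and 9.65%, and at Month10 37.9% and 24.4%. Of 41 tested genes 4 rose and 14 fell (median -0.44), with 5 higher and 10 lower at Week10 (-0.25) and 4 higher and 19 lower at Month10 (-0.46). Of 10 hepatocyte markers, most of them plasma proteins or enzymes, 1 rose and 3 fell (median -0.40), with 1 higher and 4 lower at Week10 (0.13) and 1 higher and 5 lower at Month10 (-0.55). Alb was not called (-0.35 ± 0.14, adjusted p = 0.04), and Apof (apolipoprotein F) fell (-1.12 ± 0.11, adjusted p = 2.5e-11). Ttr (transthyretin, which carries thyroxine and retinol) changed by 0.31 at Week10 (adjusted p = 0.083) and -1.18 at Month10 (adjusted p = 4.6e-10). GTTAAT or its reverse complement ATTAAC, the letters of an arm of the palindrome bound by HNF1, stood in 13 of 37 promoter windows of 32 matched plasma protein genes (35.1%) and in 1 of 10 windows of oncofetal genes (10%), against 7.10% of all windows. The Alb window (chr5:90460620-90460919, + strand) is printed 5′ to 3′ with these letters in capitals, as the promoter of the most abundant plasma protein gene at Day2, Day5 and Month10 (Apoa2 was higher at Week10).
Alb: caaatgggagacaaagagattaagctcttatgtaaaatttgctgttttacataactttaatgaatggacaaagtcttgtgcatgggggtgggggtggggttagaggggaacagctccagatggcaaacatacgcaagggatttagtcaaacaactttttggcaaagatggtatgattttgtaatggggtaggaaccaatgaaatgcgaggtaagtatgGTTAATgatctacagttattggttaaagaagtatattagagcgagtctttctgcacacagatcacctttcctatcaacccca
Of 17 acute phase genes 6 rose and 5 fell (median -0.12), with 7 higher and 4 lower at Week10 (0.22) and 3 higher and 7 lower at Month10 (-0.24). Their summed level spread widely at Week10, from 14036 to 103998 (median 25793). Orm1 and Orm3 rose (3.82 and 2.28), whereas Hp (haptoglobin) and Lcn2 (lipocalin 2) fell (-0.95 and -1.43). Of 23 genes of complement and lectins 4 rose and 4 fell (median 0.11), with 6 higher and 1 lower at Week10 (-0.08) and 6 higher and 7 lower at Month10 (-0.16). C9, the pore-forming component, rose (1.76 ± 0.17, adjusted p = 2.2e-10). Of 25 interferon response genes 2 rose and 13 fell (median -0.61), with 1 higher and 3 lower at Week10 (-0.32) and 2 higher and 12 lower at Month10 (-0.62). The summed level of all 34 listed genes had medians of 1506, 1234, 1248 and 1622 at the 4 times, with the highest Day2 library at 4242. Iigp1, the most abundant member, had means of 536, 382, 422 and 650. Igtp, an interferon-induced GTPase, changed by -0.83 ± 0.16 (adjusted p = 5.4e-05), and Usp18, which restrains the pathway, by -0.56 at Week10 (adjusted p = 0.2) and -2.44 at Month10 (adjusted p = 1.4e-08). Of 13 MHC class I genes 4 rose and 2 fell (median 0.27), with 4 higher and none lower at Week10 (-0.12) and 7 higher and 3 lower at Month10 (0.62). H2-K1 and H2-Q10, which present antigen and share sequence with their neighbours, changed by 1.62 ± 0.12 (adjusted p = 2.4e-14) and 1.40 ± 0.11 (adjusted p = 1.9e-13). Of 6 MHC class II genes 1 fell (median 0.17), with none higher and none lower at Week10 (0.57) and none higher and 1 lower at Month10 (-0.26). H2-Aa and Cd74 were not called (0.08 ± 0.25, adjusted p = 0.8 and 0.23 ± 0.25, adjusted p = 0.45). Of 18 iron and metal genes 4 rose and 3 fell (median 0.11), with 3 higher and 1 lower at Week10 (-0.08) and 6 higher and 4 lower at Month10 (0.11). Mt1 and Mt2, zinc-binding metallothioneins that neonatal liver holds in quantity, fell (-1.46 ± 0.44, adjusted p = 0.007 and -1.60 ± 0.56, adjusted p = 0.019).

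Liver transcription factors were higher at Month10 than at Week10, where 21 of 30 rose and 2 fell, against 39.1% higher and 21.4% lower of all genes tested and 1338 of 2195 genes higher in the longest bin of transcripts. With libraries centred within bins of transcript length 21 rose and 3 fell (median 1.45). From pups to adults 22.7% of all genes rose and 15.8% fell, with 5.75% and 9.65% at Week10 and 37.9% and 24.4% at Month10. Of 30 tested liver transcription factors 17 rose and 1 fell (median 0.68), but 1 rose and 2 fell at Week10 (0.18, and negative with libraries set to 1 total) and 23 rose and 3 fell at Month10 (1.72). Hnf4a, a master regulator of hepatocyte genes, ran from 42.5 to 151 (median 76.6) at Day2, from 87.6 to 138 (median 101) at Day5, from 117 to 165 (median 136) at Week10 and from 159 to 620.3 (median 396) at Month10. Month10 lay above the other times except for 1 library at 159, which was within the Week10 range, and the change was 0.55 at Week10 (adjusted p = 0.02) and 2.12 at Month10 (adjusted p = 6.7e-13). Cebpb and Zbtb20, the latter a repressor of Afp, were called at Month10 and not at Week10. Cebpb changed by 0.08 at Week10 (adjusted p = 0.88) and 3.48 at Month10 (adjusted p = 7.0e-13), and Zbtb20 by 0.61 at Week10 (adjusted p = 0.12) and 3.00 at Month10 (adjusted p = 1.6e-10). Ppargc1a, a coactivator of fasting metabolism, fell at both times (-1.38 at Week10, adjusted p = 1.5e-04 and -0.79 at Month10, adjusted p = 0.012). Zhx2, a repressor of Afp and H19 after birth, stayed at or under 6.33 in all 30 libraries and was not tested. Of 14 tested clock genes 1 rose and 2 fell at Week10 (median -0.09) and 8 rose and 1 fell at Month10 (1.19), and from pups to adults together 6 rose and 1 fell (0.52). Nr1d1, a clock repressor, rose at both times (1.90 at Week10, adjusted p = 1.8e-04 and 2.60 at Month10, adjusted p = 3.4e-07), whereas Dbp, a clock output factor, was called at Month10 and not at Week10 (0.11 at Week10, adjusted p = 0.81 and 2.97 at Month10, adjusted p = 1.2e-12). The time of day of collection is not given in the sources used here. Of 8 immediate early genes 2 fell and none rose (median -0.31), with none higher and 2 lower at Week10 (-0.60) and 1 higher and 1 lower at Month10 (-0.30). Myc was among those that fell (-1.44 ± 0.42, adjusted p = 0.0042).

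Of 13 genes of growth hormone and IGF signaling 2 rose and 3 fell (median 0.07, a sign that turned with libraries centred within bins of transcript length and by edgeR on all libraries), with none higher and 3 lower at Week10 (-0.37) and 6 higher and 1 lower at Month10 (0.10). Between the adult times 6 were higher and 1 lower at Month10 (1.02), against 39.1% and 21.4% of all genes. From pups to adults 22.7% of all genes rose and 15.8% fell, with 5.75% and 9.65% at Week10 and 37.9% and 24.4% at Month10. Ghr, the growth hormone receptor, rose (0.79 ± 0.09, adjusted p = 5.2e-09), whereas Igf1, its main hepatic target, ran from 1611 to 2173 (median 1914) at Day2, from 1700.0 to 2763 (median 2093) at Day5, from 2199 to 3122 (median 2795) at Week10 and from 1701 to 2195 (median 2054) at Month10 and was not called (0.22 ± 0.09, adjusted p = 0.038). Igfbp1, an IGF-binding protein of the fasting liver, ran from 82.5 to 369 (median 239) at Day2, from 33.1 to 211 (median 138) at Day5, from 7.49 to 51.8 (median 19.9) at Week10 and from 0 to 13.9 (median 7.48) at Month10 and fell (-3.79 ± 0.37, adjusted p = 4.1e-09). Igfbp2, another IGF-binding protein, changed by -1.52 at Week10 (adjusted p = 3.4e-05) and 0.01 at Month10 (adjusted p = 0.98), and the difference between these 2 changes was 1.53 ± 0.30 (adjusted p = 6.0e-05). Mgmt, which repairs O6-methylguanine and is the gene deleted in the other genotype of the study, ran from 13.0 to 85.0 (median 31.7) at Day2, from 13.4 to 77.1 (median 28.1) at Day5, from 20.5 to 55.4 (median 35.8) at Week10 and from 28.7 to 41.6 (median 32.7) at Month10 and was not called (0.25 ± 0.21, adjusted p = 0.32).

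The change with age differed between males and females for many sex-biased genes. The change from pups to adults was compared between males and females in 1 fit, and it differed in 229 of 8877 genes (2.58%), with the male change above the female change in 87 (0.98%) and below it in 142 (1.6%). Run and sex cannot be told apart here. The male change was the higher in 38.0% of these calls, in 21.3% with libraries set to 1 total and in 49.7% with DESeq2. Of 21 tested male-biased genes of adult liver the male change was above the female change in 17 and below it in 1 (median difference 3.73), and of 22 female-biased genes it was below in 19 and above in none (-3.51), against a median of -0.09 over all genes tested. Without 1 Month10 female (mouse D215028) the male change was above the female change in 131 genes. Of 15 major urinary protein genes the male change was above in 11 (2.67). From pups to adults as a whole, 16 male-biased genes rose and 1 fell (median 2.35), with 17 higher and 1 lower at Week10 (3.12) and 15 higher and 1 lower at Month10 (1.81). Of the female-biased genes 2 rose and 10 fell (median -0.99). At Week10 1 was higher and 9 lower (-1.02), and at Month10 4 were higher and 7 lower (-0.86). Of all genes tested 22.7% rose and 15.8% fell, with 5.75% and 9.65% at Week10 and 37.9% and 24.4% at Month10.

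Hsd3b5 (a male-specific steroid dehydrogenase, chr3:98618634-98630252, - strand) ran from 0 to 9.97 at Day2 and from 1.68 to 11.7 at Day5 in both sexes. In Week10 males it ran from 482 to 893 and in Week10 females from 7.63 to 31.0, and in Month10 males from 79.1 to 279.6 and in Month10 females from 0 to 1.87. The sexes overlapped in pups and not in adults, and the male change exceeded the female change by 5.49 ± 0.63 (adjusted p = 1.1e-07). Cyp4a12a, a fatty acid hydroxylase of male liver, was at 0 in all female pups and ran from 318 to 536 in Week10 males and from 1.52 to 22.9 in Week10 females (4.77 ± 0.56, adjusted p = 1.0e-07). Elovl3, a fatty acid elongase, ran from 998 to 3114 in Week10 males and from 3.04 to 12.7 in Week10 females, and from 108 to 309.9 in Month10 males (4.46 ± 0.55, adjusted p = 3.5e-07). Serpina1e, an alpha-1-antitrypsin gene of male liver, differed by 3.55 ± 0.65 (adjusted p = 0.0019) and Gstp1, a glutathione transferase, by 3.73 ± 0.47 (adjusted p = 8.3e-06).

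Several female-biased genes lay lower in adult males than in pups. Cyp2c69 (a P450 enzyme of female liver, chr19:39842814-39886799, - strand) ran from 75.9 to 121 in Day2 males and from 200.1 to 279 in Day2 females. At Week10 it ran from 0.978 to 4.42 in males and from 1772 to 5688 in females, so adult males lay below every pup and adult females above at both adult times, and the changes differed by -8.78 ± 0.60 (adjusted p = 1.6e-09). Cyp2b13, which shares sequence with Cyp2b9, ran from 83.4 to 178 in Day2 males, from 0 to 1.42 in Week10 males and from 0 to 3.16 in Month10 males. In females it ran from 46.4 to 188, from 180.2 to 222 and from 231 to 585 at the same times (-7.71 ± 0.43, adjusted p = 5.3e-14). A1bg, a plasma protein of female mice, was at 0 in all Month10 males and ran from 1368 to 4036 in Month10 females (-8.07 ± 0.63, adjusted p = 3.8e-09, a fitted value that depends on the pseudocount). Cyp2a4, a steroid hydroxylase, differed by -7.30 ± 0.60 (adjusted p = 3.8e-09). Enzymes of the Cyp2c, Cyp2b and Cyp2a clusters are near-identical copies, so counts of single members are uncertain.

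**Figure D5:**
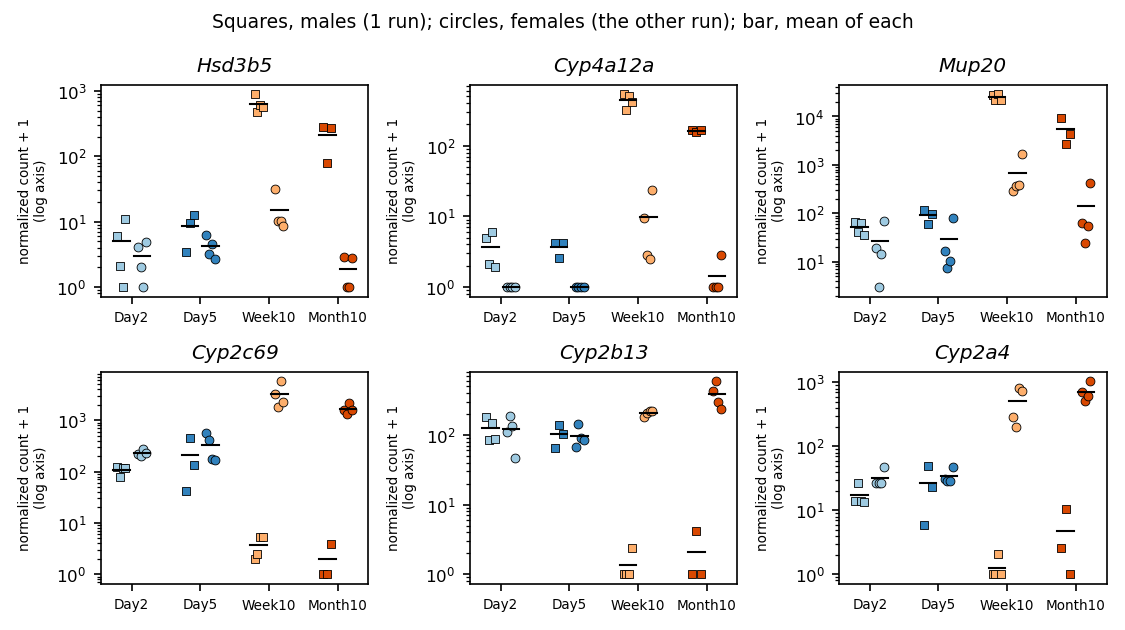
Normalized count + 1 (log axis) of 3 male-biased (top) and 3 female-biased (bottom) genes in each library at the 4 collection times, with squares for males of 1 run, circles for females of the other and bars for means. In every panel the sexes overlap or lie closer in pups and do not overlap at Week10 or Month10.

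Between Day2 and Day5, 50 of 8877 genes were called (0.563%), 39 higher (0.439%) and 11 lower (0.124%). Hepcidin genes, whose hormone blocks iron export, rose. Hamp (chr7:30942368-30944032, - strand) ran from 56.7 to 251 (median 128) at Day2, from 1103 to 2896 (median 1566) at Day5, from 1228 to 9395 (median 3933) at Week10 and from 1555 to 7299.8 (median 4940.1) at Month10, so that every Day5 library lay above every Day2 library (3.76 ± 0.36, adjusted p = 4.7e-07). Its copy Hamp2, with which reads may be shared, ran from 52.7 to 271 (median 164) at Day2, from 1682 to 6309 (median 2133) at Day5, from 32.0 to 4694 (median 637) at Week10 and from 63.9 to 3177 (median 881) at Month10 and changed by 3.98 ± 0.71 (adjusted p = 0.01). Tfrc, which takes up transferrin iron, fell, from medians of 126 to 19.7 (-2.14 ± 0.38, adjusted p = 0.006). Of 24 cholesterol synthesis genes 9 rose and none fell (median 1.35), with Cyp51, Fdps and Msmo1 at 2.52 ± 0.52 (adjusted p = 0.023), 2.26 ± 0.47 (adjusted p = 0.023) and 2.18 ± 0.49 (adjusted p = 0.034). Of 20 fatty acid synthesis genes 5 rose (median 0.68), Thrsp and Fasn among them (2.41 ± 0.44, adjusted p = 0.011 and 1.47 ± 0.33, adjusted p = 0.026). Afp and Ngp fell (-1.87 ± 0.39, adjusted p = 0.014 and -1.82 ± 0.43, adjusted p = 0.034), and no cell division gene was called. These calls rest on few libraries. Leaving out single libraries gave 9 to 62 genes higher and 3 to 33 lower, with 9 higher and 3 lower without the Day5 female D215009 and 62 higher and 28 lower without the Day5 female D215011. Without the 3 Day2 libraries whose size factors were close to 1, 2 genes rose and none fell by limma, with 689 genes at an unadjusted p under 0.05, and males alone gave 61 genes higher and 14 lower and females alone 2 higher and 1 lower. By edgeR on whole reads of all libraries, which was added after the data were seen, 74 rose and 41 fell.

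Between Week10 and Month10, 5367 of 8877 genes were called (60.5%), 3467 higher (39.1%) and 1900 lower (21.4%) at Month10, with a median of 0.35 over all genes tested. The share of calls that were higher was 64.6%. It was 80.9% with libraries set to 1 total, 52.9% by edgeR, 54.5% by DESeq2, 50.6% where the mean had to reach 20, and 49.6% after libraries were centred within bins of transcript length (2316 higher and 2353 lower). Most cytosolic ribosomal protein genes were lower at Month10. Of 64 tested cytosolic ribosomal protein genes 52 fell and none rose (median -1.08; 46 fell and none rose with libraries centred within bins of transcript length, and 40 fell and 6 rose with libraries set to 1 total), and against pups 1 rose and none fell at Week10 (0.01) and 1 rose and 55 fell at Month10 (-1.05). Rps4x, a protein of the small ribosomal subunit, ran from 19.1 to 56.7 (median 36.0) at Day2, from 19.7 to 94.4 (median 34.1) at Day5, from 21.1 to 58.4 (median 39.0) at Week10 and from 1.25 to 7.99 (median 3.78) at Month10, so that Month10 lay below every other library. Of 55 nuclear genes of oxidative phosphorylation 36 fell and 2 rose (median -0.91; 32 fell and 2 rose after that centring, and 25 fell and 4 rose with 1 total), with none called at Week10 against pups by limma (-0.04) and 1 higher and 37 lower at Month10 against pups (-0.86). Month10 also had fewer reads of Cd68, a lysosomal protein of macrophages (-3.07 ± 0.43, adjusted p = 6.5e-07), and of Fabp5, a fatty acid carrier (-3.33 ± 0.31, adjusted p = 5.2e-11), and more of Mfsd2a, a lysophospholipid transporter (3.37 ± 0.48, adjusted p = 1.9e-07).

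Run 200803Eng held 7 further WT saline livers that are not members, 4 from Day1 and 3 from Month10, and gave a contrast of Month10 with pups in other mice. Of 9387 genes tested, 2668 were higher at Month10 (28.4%) and 1932 lower (20.6%), 49% in all, with sex as a term. The share higher was 58.0%, 68.8% with libraries set to 1 total, 47.5% by edgeR and 46.7% by DESeq2. There Afp, H19 and Gpc3 changed by -6.62 ± 0.49 (adjusted p = 4.3e-06), -7.48 ± 0.33 (adjusted p = 1.0e-09) and -3.80 ± 0.37 (adjusted p = 2.2e-06). All 8 tested oncofetal genes fell (median -2.93), as did 33 of 38 cell division genes (-2.84), and 24 of 24 cholesterol synthesis genes rose (3.54). Of 20 fatty acid synthesis genes 18 rose, and of 13 tested major urinary protein genes 9 rose and none fell (4.02). Of 69 ribosomal protein genes 60 fell and 1 rose (-1.93). Other lists had a median of the other sign than Month10 against pups in the members. Of 11 tested gluconeogenesis genes 5 rose and 1 fell (0.67), against a median of -0.41 for the members at Month10. Of 51 cytochrome P450 genes 16 rose and 3 fell (0.80), against -0.19. Of 41 plasma protein genes 8 rose and 5 fell (0.15), a sign that turned with edgeR and DESeq2, against -0.46. Of 21 female-biased genes 2 rose and 3 fell (0.52), against -0.86. The same held for the medians of urea cycle genes, adult glucose enzymes, periportal genes, complement and lectin genes, hepatocyte markers, immediate early genes and fatty acid oxidation genes. Of these, hepatocyte markers and immediate early genes turned sign in run 200803Eng with edgeR, and fatty acid oxidation genes with libraries set to 1 total. The difference between the 2 contrasts was not tested, and the pups of run 200803Eng were from another time. By bin of transcript length the medians were -0.21, -0.04, 0.36 and 0.90, so the Month10 libraries of this run showed the same order with length. Leaving out the Month10 male D209049 left 1393 genes higher and 1287 lower.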

How the data were processed

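Livers of WT mice were collected after saline, stored in RNAlater and profiled by 3′ digital gene expression with molecular identifiers. The deposited signal is a gene count divided by 1 size factor per library. Per the authors, STAR mapped the reads to GRCm38 (mm10), ESAT counted them per gene, and DESeq2 normalized them by the median of ratios. The WT libraries of both treatments stand in 1 table and are taken here as normalized together. Tool versions and the annotation used are not given in the sources used here. In the WT table, 37 columns were used (30 members and 7 libraries of run 200803Eng) and 80 were not. Libraries of Mgmt-deficient mice stand in a separate table, which was not used.

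Every value was a whole multiple of its library's step within 0.001 (100% of values), so whole reads could be recovered. For 3 Day2 libraries (mice D202001, D202003 and D215002) the step lay so close to 1 that reads and normalized values could not be told apart, and these were left out of the count tests by edgeR 4.0.16 and DESeq2 1.42.0, except in an edgeR fit of all libraries. Pups and adults were compared with limma 3.58.1 (trend, robust) in R 4.3.3 on log2(value + 1), with a mean for each time and run as a term, in 1 fit of the 30 libraries. Genes needed a mean of at least 5. Benjamini-Hochberg adjustment of p-values ran over every tested gene. By edgeR on whole reads 1622 genes rose and 1597 fell from pups to adults, and over all genes tested the median was 0.01. Scripts were tested on simulated data. Replicate libraries of a time were checked against each other and none was a duplicate.

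The members and the 46 gene lists were chosen with earlier results of these data known. Named genes were a set list of markers, the called genes with the largest changes in each comparison (mean of at least 20, and for pups against adults without overlap), and from each list its 3 most abundant and 2 most changed members. Cd24a, Grb10, Igf2bp3, Srebf1, Cpox, Blvrb and Car1, and list members named only as untested, at 0 or as copies, were named after their values were seen. Gene coordinates are those of GENCODE vM21 (GRCm38), and promoters are those of RefSeq (GRCm38.p6). Windows on chromosome 18 were left out, so all windows here means those of the other chromosomes. The windows used matched 35 of 46 cell division genes and 32 of 41 plasma protein genes. A few genes counted in the lists are not reported by name here.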

Additional observations from a re-analysis of the deposited data

Results flagged for a closer look

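In the 93 genes checked, 1 library stood far from the others of its time in 30 of 367 groups, by the size of its gap to the nearest library as a share of the range of its group. Chance would flag about 1 in 20 groups if values were normally distributed, which was not tested. At Day2 the lowest library stood apart in Alb (0.706), Cpt1a (0.554), Cyp2e1 (0.741), Cyp51 (0.570), Ghr (0.528), Glul (0.760), Igfals (0.759, the acid-labile subunit of circulating IGF1) and Pde6c (0.687). At Day2 the highest library stood apart in Arhgdib (0.613), H2-Aa (0.541), Igtp (0.529), Mup3 (0.578), Mup7 (0.592) and Spink1 (0.670). At Day5 the lowest library stood apart in Cyp2a4 (0.641), Cyp7a1 (0.601), Glul (0.691) and Mup16 (0.579), and the highest in Cd74 (0.644). At Week10 the lowest stood apart in Cdk1 (0.549) and Col3a1 (0.646), and the highest in Cpt1a (0.822), Igf2 (1) and Zhx2 (1). At Month10 the lowest stood apart in Gm44505 (0.766), Hamp (0.681), Hnf4a (0.591), Mup16 (0.585) and Ndst1 (0.816, a heparan sulfate enzyme), and the highest in Igf2 (1). The value of 1 in Igf2 and Zhx2 arises because every other library of that time was at 0.

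The change from pups to adults differed between males and females, which are also separate runs, in 24 of the 93 genes by the interaction term of the limma fit. The male change minus the female change, on the log2 scale, was positive in Hsd3b5 (5.49), Mup7 (5.44), Cyp4a12a (4.77), Cyp2d9 (4.74), Elovl3 (4.46), Ugt2b38 (4.46, a glucuronosyltransferase), Mup20 (3.81), Gstp1 (3.73), Mup13 (2.73), Alas2 (2.14), Mup12 (2.01) and Mup3 (1.69). It was negative in Cyp2c69 (-8.78), A1bg (-8.07), Cyp2b13 (-7.71), Cyp2a4 (-7.30), Cyp2b9 (-6.33), Cyp2c40 (-6.27), Hamp2 (-3.52), Hao2 (-3.49), Sult2a5 (-2.79), Sult2a1 (-2.57), Cps1 (-1.29) and Clec4f (-1.10). Whether sex or run moved with them cannot be told apart.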

How the results depend on the processing

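Of 412 counts of calls recomputed under an alternative, 354 stayed within 1.5 times the reported count and 58 did not. From pups to adults, 1077 genes rose and 846 fell with a mean of at least 20, 867 and 608 with a log2 fold change over 1, 510 and 857 at Week10 and 3362 and 2169 at Month10. Single times gave 645 higher for Day2 against Week10, 3532 and 2216 (higher and lower) for Day2 against Month10, 378 and 502 for Day5 against Week10, and 3370 higher for Day5 against Month10. For Day5 against Day2, counts were 32 lower with a pseudocount of 5, 19 and 3 without the run term, 17 and 7 by edgeR, 2 and 0 without the 3 libraries near 1 (689 genes at an unadjusted p under 0.05 by limma), 74 and 41 by edgeR on all libraries, 19 lower with total reads as a term, 5 lower with a log2 fold change over 1, 61 higher in run 200710Eng and 2 and 1 in run 200724Eng. For Month10 against Week10, 1588 were higher with a mean of at least 20, 1077 lower with a common total and 1165 lower with a log2 fold change over 1. For the difference between males and females, counts were 255 lower with a common total, 48 and 92 by edgeR, 88 lower by DESeq2, 87 lower without the 3 libraries and 80 lower with total reads as a term. In run 200803Eng 1756 were higher with a mean of at least 20. Leaving out each library in turn gave 1885 to 2140 higher and 1357 to 1474 lower from pups to adults, 9 to 62 and 3 to 33 for Day5 against Day2, 3312 to 3518 and 1824 to 1975 for Month10 against Week10, 67 to 131 and 96 to 177 for males against females, and 1393 to 2766 and 1287 to 1835 in run 200803Eng. For Day5 against Day2 a count moved by over 1.5 times without the Day2 mice D202001, D202003, D215001, D215002, D215003 or D215004, the Day5 mice D202009, D202010, D215009 or D215011, or the Month10 mouse D202025.

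Of values of named genes 41 reversed, all between times or runs. Week10 against pups gave Igf2r -0.96, Fbp1 0.057, Cyp2c29 0.073, C3 -0.65, Ppara -0.52, Sdc1 -0.054, Clec4g 0.056, Tm4sf4 0.089 and Rps14 0.15, and Month10 against pups Igfbp2 0.010. Day2 against Week10 gave Cyp2c29 0.0094, Gsta3 0.69, Ppara -0.63, Sdc1 -0.12, Tm4sf4 0.015 and Rps14 0.14, and Day2 against Month10 H2-Aa -1.12 and Cd74 -0.91. Day5 against Week10 gave Clec4f 0.062, Igf2r -1.29, Slc25a15 -0.16, Fbp1 0.29, Cyp2c29 0.13, Igfbp4 -0.62, Ppara -0.40, Dbp -0.073, H2-DMa 0.41, Lyz2 0.67, Clec4g 0.25, Tm4sf4 0.17 and Rps14 0.16, and Day5 against Month10 Cyp2f2 -0.73, Cpt1a 0.66, Igfbp2 0.51, Hamp2 -2.35 and Ftl1 -0.65. Run 200710Eng alone gave Alas2 0.95, Cyp2d9 2.12 and Ccnd1 -0.67, and run 200724Eng alone Cyp2b9 0.59 and Cyp2c69 3.09. The cause of these was not tested. Every other value of a named gene that was called kept its direction, and 11026 values stayed on their side of the threshold, while 320 fell below it and 225 rose above it.

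No paired analysis was possible because mice of different times were separate animals with numbers of their own. Run and sex cannot be told apart, litters were not given, and changes of genes with few reads are limited by depth at 392164 to 2329956 reads a library. The edgeR fit of all libraries, the centring by length and both adult times against pups were chosen after seeing the data.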
